A study of Mus musculus with 4 samples.

Results

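Narrow DNMT3B regions listed as contained within a gene, outside chromosome 16, numbered 520 of the 1705 distinct regions of the series' MACS list. They were chosen by the list's own wording: the distance to the nearest gene is 0, the overlap text holds the words "contained within", and a further 139 regions on chromosome 16 with this wording are left out. The rule uses no measured enrichment. Of the 1371 regions off chromosome 16, the contained regions made up 37.9%, regions placed only in an intron 24.9% (342 regions), regions across a gene edge 11.6% (159) and regions upstream of a gene 21.6% (296).

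The study mapped DNMT3B by chromatin immunoprecipitation and sequencing in lung metastases of 4T1, a mammary tumour cell line of the BALB/c mouse strain. There were 2 DNMT3B ChIP libraries and 2 input libraries, the input being chromatin DNA taken with no antibody, and both kinds came from the lungs numbered 3 and 5. All 4 libraries share the cell line, the strain and the tissue, and the labels name no other treatment. The lists are of the series as a whole and hold no value per library, so depth and the spread between libraries are unknown, and p-values describe the placement of regions only. Whether the metastases held host lung cells could not be checked against expression, because the files hold positions only.

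DNMT3B adds methyl groups to cytosines that were not methylated before, chiefly at CpG, a cytosine followed by a guanine. Its PWWP domain binds histone H3 methylated at lysine 36, a mark that covers the bodies of transcribed genes, and in mouse embryonic stem cells the enzyme methylates such gene bodies. CpG-rich promoters of active genes, by contrast, usually stay free of methylation.

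The wording "contained within" is not defined in the sources used here. The list has a separate wording for introns, and 466 of the 520 members carried the contained wording for 1 gene and nothing else. In 36 members the text also named an intron, 23 of them an intron of the same gene, and in 13 it also named a partial overlap. The text placed 6 members inside more than 1 gene, and these counts overlap in part. Positions carry at most 6 significant digits, so 121 members stand in steps of 10 bp, 278 in steps of 100 bp and 121 in steps of 1000 bp. In the whole list, all 255 overlap percentages gave a whole number of bases when applied to the rounded width, to within 1e-06 bases. The wording was therefore set on rounded positions, and a region rounded to a single point cannot cross a gene edge. Such points, with equal start and end, were 154 of the members. The labels name the build mm10, the assembly GRCm38, but only 137 of the 520 members (26.3%) lay within the GRCm38 span of the gene that the list names. Positions, distances and gene names below are therefore those of the deposited lists, in a build that is not settled for most members.

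Sequences were read from RefSeq promoter windows by gene name, not by the deposited positions. Each window runs from 250 bases before to 50 bases after a gene start in GRCm38.p6. Of 64 genes outside chromosomes 16 and 18 with a contained region within 1 kb of the listed start, positions finer than 1000 bp and a window fitting the listed transcript length within 1000 bp, 6 are shown because they span the range of CpG content at the starts beside these regions. Irs1, which encodes an adaptor of the insulin receptor, and Ulk2, which encodes a kinase that starts autophagy, were among 4 genes tied for the most regions near the start, 2 each, and were taken from the tie by the order of chromosome names as text and of position. Plekhj1 and Map2k7 (a kinase gene that activates JNK) had the highest observed over expected CpG ratios of the remaining genes. Rrp1b, whose product takes part in ribosome biogenesis, and Pick1, which encodes a PDZ scaffold protein, had the lowest. Each CpG is in capitals, the sequence runs 5′ to 3′ on the strand of the gene, and the positions are GRCm38.p6 positions of the window.
Irs1 (chr1:82291390-82291689, minus strand): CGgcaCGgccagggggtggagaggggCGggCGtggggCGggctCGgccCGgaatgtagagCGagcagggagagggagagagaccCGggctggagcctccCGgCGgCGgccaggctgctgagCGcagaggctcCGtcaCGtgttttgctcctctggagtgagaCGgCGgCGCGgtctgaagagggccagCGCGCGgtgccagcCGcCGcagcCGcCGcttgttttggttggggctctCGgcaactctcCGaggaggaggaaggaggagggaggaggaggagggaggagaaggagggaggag
Ulk2 (chr11:61855043-61855342, minus strand): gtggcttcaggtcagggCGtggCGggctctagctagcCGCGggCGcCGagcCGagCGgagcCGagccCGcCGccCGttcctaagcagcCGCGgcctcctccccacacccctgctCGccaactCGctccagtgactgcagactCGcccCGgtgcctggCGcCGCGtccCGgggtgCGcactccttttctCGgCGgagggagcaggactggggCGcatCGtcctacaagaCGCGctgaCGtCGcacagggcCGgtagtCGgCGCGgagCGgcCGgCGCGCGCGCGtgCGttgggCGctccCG
Plekhj1 (chr10:80798577-80798876, minus strand): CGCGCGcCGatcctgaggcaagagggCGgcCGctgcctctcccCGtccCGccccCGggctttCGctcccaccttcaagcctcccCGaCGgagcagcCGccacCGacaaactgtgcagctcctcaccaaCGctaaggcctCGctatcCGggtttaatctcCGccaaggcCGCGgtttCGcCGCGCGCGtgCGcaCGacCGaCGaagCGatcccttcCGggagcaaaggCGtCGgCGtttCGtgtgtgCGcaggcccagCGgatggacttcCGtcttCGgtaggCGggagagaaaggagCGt
Map2k7 (chr8:4238490-4238789, plus strand): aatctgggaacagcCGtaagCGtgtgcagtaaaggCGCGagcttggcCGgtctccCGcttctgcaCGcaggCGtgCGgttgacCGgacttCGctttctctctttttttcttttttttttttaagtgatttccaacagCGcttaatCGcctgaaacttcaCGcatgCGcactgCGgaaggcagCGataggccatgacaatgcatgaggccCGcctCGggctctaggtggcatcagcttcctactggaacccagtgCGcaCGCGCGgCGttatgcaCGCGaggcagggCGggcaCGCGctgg
Rrp1b (chr17:32035912-32036211, plus strand): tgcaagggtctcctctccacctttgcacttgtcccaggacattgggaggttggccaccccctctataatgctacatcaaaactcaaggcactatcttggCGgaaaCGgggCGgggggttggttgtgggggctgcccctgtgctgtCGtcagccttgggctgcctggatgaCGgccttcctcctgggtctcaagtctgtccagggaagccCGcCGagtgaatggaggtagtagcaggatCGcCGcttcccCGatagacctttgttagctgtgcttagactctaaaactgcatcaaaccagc
Pick1 (chr15:79228923-79229222, plus strand): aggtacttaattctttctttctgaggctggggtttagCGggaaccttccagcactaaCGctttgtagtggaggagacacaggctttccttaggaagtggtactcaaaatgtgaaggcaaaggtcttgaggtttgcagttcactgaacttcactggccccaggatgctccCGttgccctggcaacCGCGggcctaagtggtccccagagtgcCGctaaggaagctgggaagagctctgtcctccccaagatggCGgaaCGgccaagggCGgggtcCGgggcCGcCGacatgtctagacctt

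The spread in CpG content among these windows was set by the choice of the highest and lowest ratios. Irs1 had 28 CpG in 300 bases, an observed over expected ratio of 0.827, and Ulk2 had 45, a ratio of 1.08. Plekhj1 had 41 CpG and a ratio of 1.19, and Map2k7 had 29 and a ratio of 1.15. Rrp1b had 10 CpG and a ratio of 0.406, and Pick1 had 12 and a ratio of 0.508. In Irs1 the midpoints of the regions lay 164 and 614 bp inside the gene, in Ulk2 344 and 544 bp. The distance was 621 bp in Plekhj1, 126 bp in Map2k7, 344 bp in Rrp1b and 247 bp in Pick1. The same rule also picked B4gat1, for a glycosyltransferase (ratio 0.856), Ndufa7, for a subunit of respiratory complex I (1.09), and Pkd1, for polycystin-1 (0.541), whose windows are not shown.

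Genes with a contained region had CpG-rich promoters more often than protein-coding genes at large. Of the 21221 protein-coding genes off chromosome 16, 445 had a contained region (2.10%), and 348 of these had a promoter window, here the one nearest to the gene's outer end. Their median CpG count was 23, with quartiles of 16 and 31, against 13, with quartiles of 4 and 24, over 16924 protein-coding genes off chromosome 16. The observed over expected CpG ratio exceeded 0.6, a customary mark of CpG islands, in 277 of the 348 (79.6%) and in 48.3% of all. It did so in 77.6% of 214 genes with intron regions and none contained, and in 67.9% of 2864 genes of the island list. Among genes with a listed start, 88 of 101 with a contained region within 1 kb of it passed this ratio (87.1%), as did 30 of 47 whose contained regions all lay farther away (63.8%). These shares are descriptions and were given no test.

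The hexamer GGGCGG, the core of the binding motif of SP1, was present on either strand in 71.6% of the 348 windows and in 46.4% of all. Its share was similar, 70.1%, in genes with intron regions and none contained, and 66.4% in genes of the island list. The hexamer holds a CpG, so its presence overlaps with the CpG count. TATAAA, the TATA box letters, was present on either strand in 5.75% of the 348 windows, against 13.2% of all. It was present in 7.94% of windows of genes with intron regions and none contained, and in 6.39% for the island list. CCAAT was present in 38.5% of the 348 windows and in 39.2% of all. A match is a run of letters in the window and not a measured site.

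**Figure D1:**
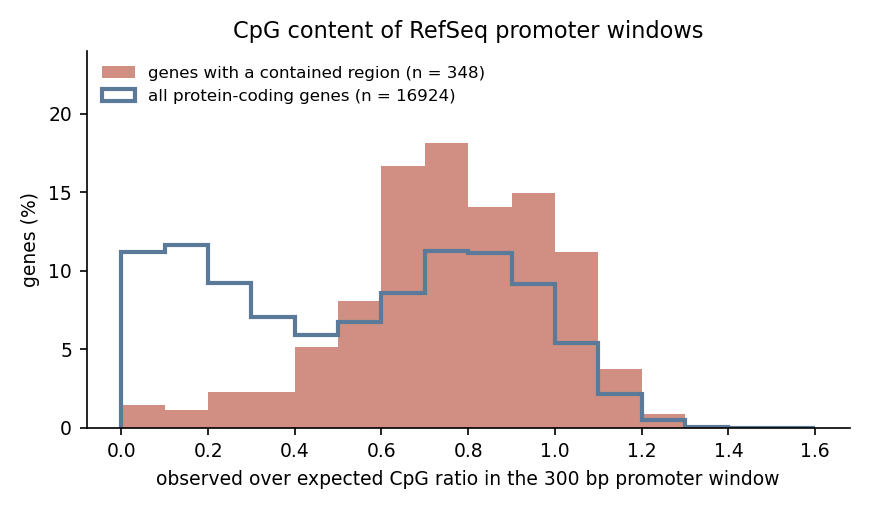
Distribution of the observed over expected CpG ratio in the 300 bp RefSeq promoter window (x axis) as a percentage of genes (y axis), for 348 protein-coding genes with a contained region (filled) and all 16924 protein-coding genes off chromosome 16 with a window (outline). Of the filled distribution 79.6% exceeds 0.6, against 48.3% of all genes.

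Contained regions gathered in the first kilobase of genes. A gene start in the deposited positions was known for 218 of the 520 members. These are members in genes that the list of broad SICER islands also names, with the midpoint inside a listed transcript to within 1 rounding step. Of these, 136 (62.4%, exact 95% interval 55.6 to 68.8) had the midpoint within 1 kb of the start, and 109 of them lay within 500 bp. Counted into the gene, 134 midpoints fell in the first kb and 9 in the next. The median distance was 491 bp, with quartiles of 192 and 5810 bp. Positions in steps of 10 or 100 bp were given for 159 of the 218, and 103 of these (64.8%) lay within 1 kb. The remaining members are known to 1000 bp only, so their part in the 500 bp count and the median is finer than their positions. Of the intron-only regions 118 of 175 (67.4%, 59.9 to 74.3) lay within 1 kb, at a median of 633 bp over all 175, and the intervals of the shares overlap. All genes with a listed start are paired with an island, so these shares hold for that part of the list.

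The contained regions beyond the start reached to the far end of genes. Of 162 members in listed genes of at least 10 kb, 105 (64.8%) lay in the first 20% of the gene and 31 (19.1%) in the last 20%. In all, 37 of the 218 members lay in the last 20% of the gene, against 9 of the 175 intron-only regions. A single gene, Plec, supplied a sizable part of these members. Its 9 regions lay 79.0 to 97.5% along the gene, all but that at 79.0% in the last 20%. Within 1 kb of the gene end stood 12 members and 2 intron-only regions. By the list's wording an intron-only region lies in an intron, and a gene does not end in one. The class itself thus limits the count of intron-only regions near the gene end. These places along the gene were given no test.

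**Figure D2:**
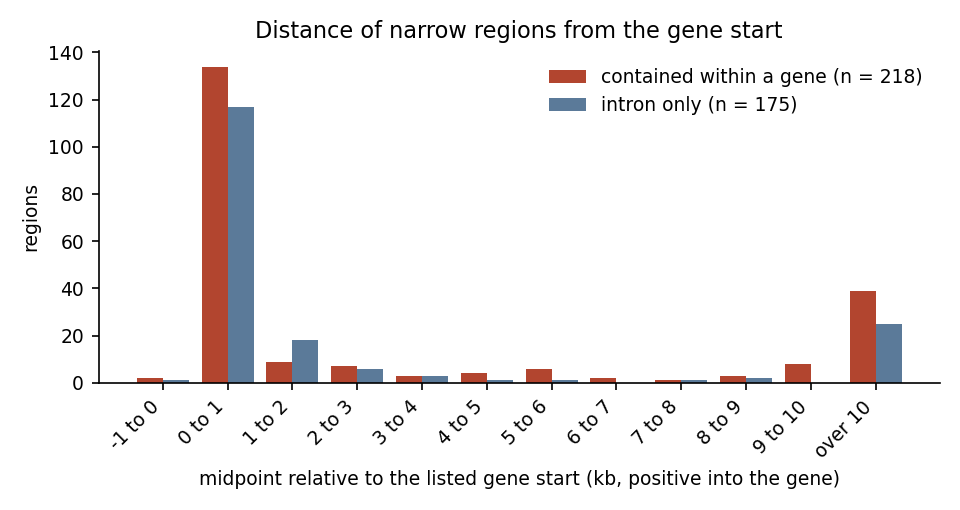
Number of regions (y axis) by distance of the midpoint from the listed gene start in 1 kb bins (x axis), for 218 contained regions and 175 intron-only regions with a listed start. The first kilobase holds 134 contained and 117 intron-only regions, and the last bar, beyond 10 kb, holds 39 and 25.

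Contained regions lay in SICER islands, the broad stretches of enrichment called by the other program, more often than intron-only regions did, and more often than edge and upstream regions taken as 1 class. Of the 520 members, 191 (36.7%, exact 95% interval 32.6 to 41.0) overlapped an island by 1 bp or more, against 100 of 342 intron-only regions (29.2%, 24.5 to 34.4) and 127 of 455 edge and upstream regions (27.9%, 23.8 to 32.3). Over all regions off chromosome 16 the share was 31.3%. The odds ratio was 1.40 against intron-only regions (95% interval 1.04 to 1.91, adjusted p = 0.0271, Fisher's exact test, two-sided). Against edge and upstream regions it was 1.50 (1.13 to 1.99, adjusted p = 0.00800, Fisher's exact test, two-sided), with adjustment over both comparisons. Both calls were lost without chromosome 19 (odds ratios 1.24 and 1.31, adjusted p = 0.201 and 0.149, exact test) and with 1 region per gene (1.35 and 1.35, adjusted p = 0.0616 each, exact test). Over the alternatives the adjusted p of the comparison with intron-only regions ran between 8.80e-13 and 0.441. That with edge and upstream regions ran between 2.25e-11 and 1, the last in genes whose positions differ from GRCm38, with an odds ratio of 0.979. Both lowest values came from counting every deposited line, where identical lines of 1 region enter as if separate. Without that count the lowest adjusted p was 0.0236 against intron-only and 0.000595 against edge and upstream regions (exact test). GRCm38 end positions here mean at least 1 listed gene end, the start or the far end, within 1 kb of GRCm38. In genes with GRCm38 end positions the odds ratio against intron-only regions was 3.80 (42 of 52 against 13 of 25 regions, adjusted p = 0.0291, exact test). Gene positions are known only for genes that the island list names. Both splits by gene positions are thus selected for islands, the outcome compared here, and do not stand for all members.

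A different measure, whether the gene has an island paired with it anywhere, was lower in genes with a contained region. Of 411 protein-coding genes with a contained region and none only in an intron, 164 (39.9%) had such an island, against 137 of 282 genes (48.6%) with intron-only regions. The odds ratio was 0.703 (0.512 to 0.966, p = 0.0240, Fisher's exact test, two-sided). A further 34 genes had regions of both kinds and were left out. This measure differs from the overlap of the region itself, which with 1 region per gene was 34.5% (160 of 464) for contained and 28.0% (90 of 321) for intron-only regions. Genes with a contained region were shorter, with a median of 19.1 kb in RefSeq (quartiles 7.81 and 47.9 kb) against 28.6 kb (12.4 and 64.2 kb) for genes with an intron-only region. These medians are over 445 and 316 genes, and the 34 genes with regions of both kinds count in each. The median of all protein-coding genes was 17.1 kb. The part of gene length in the difference was not tested.

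**Figure D3:**
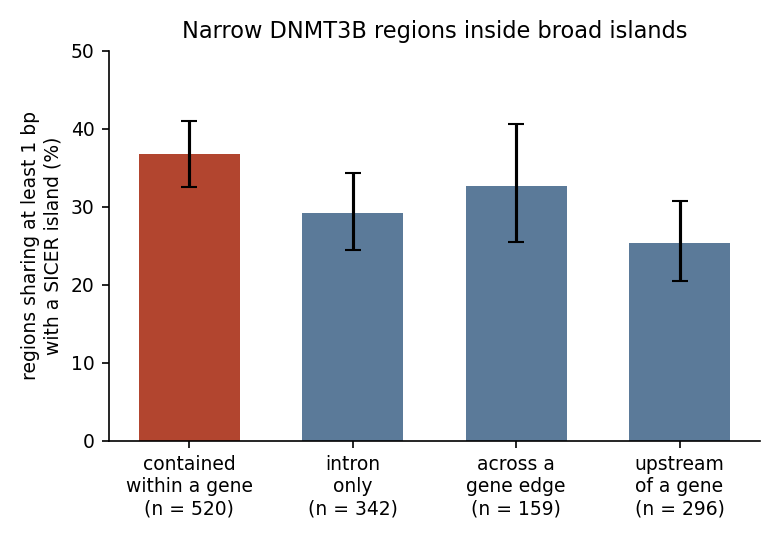
Percentage of narrow regions that share at least 1 bp with a SICER island (y axis) in 520 contained, 342 intron-only, 159 edge and 296 upstream regions off chromosome 16; bars are shares and whiskers exact 95% binomial intervals, which cover counting error only. The share is 36.7% for contained regions and 29.2%, 32.7% and 25.3% for the other classes.

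The 191 members in islands fell in 157 islands with a median width of 7200 bp and quartiles of 4200 and 11200 bp. Islands that held an intron-only region numbered 92, with a median width of 8800 bp. The central part of the island, from 25 to 75% of its length, held 112 of the 191 midpoints (58.6%). The island was paired with the same gene as the region in 93 of the 191 members, so the gene names of the callers' lists often differed at 1 place. Of the members within 1 kb of the gene start 76 of 136 lay in islands (55.9%, 47.1 to 64.4), and of those farther away 48 of 82 did (58.5%, 47.1 to 69.3). Both shares stand above the 36.7% of all members, and a start is listed only for genes paired with an island.

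The widest islands with a member lay on chromosomes 8, 11 and 15. The island of 60000 bp at Triobp, whose product binds and bundles actin filaments, held the contained region on chromosome 15 from 78798100 to 78798200. An island of 42200 bp held the region in Aatk, a kinase gene, on chromosome 11 from 119873000 to 119874000. Other wide islands held members in Gatsl3 (37600 bp), Enthd2 (35800 bp), Aebp1 (35400 bp), Tmc8 (32200 bp), Ankrd54 (30400 bp) and Fam83h (27400 bp). The island of 26600 bp on chromosome 8 held 3 members, in Map2k7 and in Ctxn1.

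Members were spread over 464 genes. Of these, 421 had 1 contained region, 38 had 2 and 5 had 3 or more. By RefSeq biotype 445 were protein-coding, 17 were lncRNA genes, 1 was a transcribed pseudogene and 1 a miRNA gene. Of the 21221 protein-coding genes off chromosome 16, 2.10% had a contained region and 4.02% were overlapped by a region of any class. In addition, 35 of the 464 genes had an intron-only region, 14 an edge region and 25 an upstream region, and 64 had at least 1 of these.

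Plec stood first with 9 contained regions. It encodes plectin, a linker of intermediate filaments to the membrane and to other parts of the cytoskeleton. The regions lay on chromosome 15, the first from 76002700 to 76003100 and the last from 76014000 to 76014200. All 9 lay in the final part of the gene, 79.0 to 97.5% of the way along its listed 60406 bp. An island of 10000 bp held 6 of them and an island of 31400 bp held 2 more, and the region from 76010100 to 76010400 lay between the islands.

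Ltbp3, for a matrix protein that holds latent TGF-beta, had 4 members on chromosome 19 in 2 groups. The regions at 5745600 and from 5745700 to 5745830 lay 4697 and 4862 bp from the start, in an island of 10800 bp. The regions from 5757780 to 5757820 and from 5758040 to 5758090 lay 733 and 468 bp from the gene end, in an island of 9400 bp. Zbtb7a, which encodes a zinc finger transcriptional repressor, had 4 members on chromosome 10 from 80606700 to 80611000, all in an island of 10800 bp. Its start is not listed.

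Evpl, which encodes envoplakin of the cornified envelope, had 3 members on chromosome 11. A pair at 116083000, known to 1000 bp, lay 90.7 and 93.6% along the gene and in an island of 12400 bp, and the third, at 116094000, lay outside islands. Ing1, a chromatin reader gene, had 3 members on chromosome 8 outside islands, from 11558500 to 11558600, from 11561600 to 11561700 and from 11561900 to 11562000. They lay 34.6, 77.7 and 81.9% along its listed length.

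**Figure D4:**
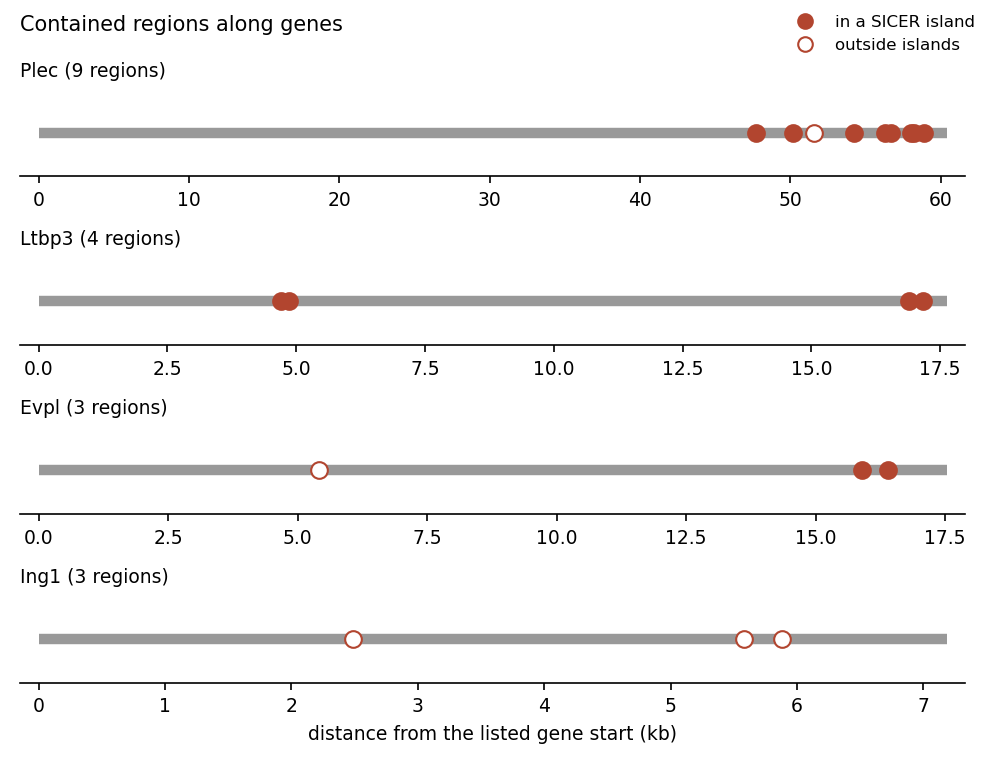
Midpoints of contained regions along the 4 genes with 3 or more members and a listed start, by distance from that start in kb (x axis; the grey bar is the listed gene), filled where the region shares at least 1 bp with a SICER island. The 9 regions of Plec lie 79.0 to 97.5% along the gene and those of Ltbp3 fall in 2 groups of 2.

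In the 38 genes with a pair of members, the pair usually lay close together. The median distance from the start of the first to the end of the second was 830 bp, with extremes of 200 bp in Adamtsl5 and Gatad2a and 157670 bp in Zfp704. Both regions lay in islands in 16 of these genes, neither did in 19, and 3 genes, Jph3, Kcng4 and Triobp, had 1 in and 1 out. The receptor substrate gene Irs2 had its pair on chromosome 8, from 11007000 to 11007200 and from 11007400 to 11008400, in an island of 10600 bp. The angiogenic growth factor gene Vegfa had its pair between 46168100 and 46169100 on chromosome 17, in an island of 2800 bp. Hand1 and Sox10, both genes of developmental transcription factors, had pairs outside islands, on chromosome 11 from 57644900 to 57645200 and on chromosome 15 from 78994000 to 78994400. Suv420h1, now Kmt5b, whose product methylates histone H4 at lysine 20, had regions from 3767490 to 3767750 and from 3767960 to 3768130 on chromosome 19, both in an island of 3800 bp.

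Genes of cytoskeletal linkers and of PI3K and Akt signalling had contained regions at the highest shares of 21 gene lists. Against 2.10% of all protein-coding genes, 5 of 37 listed genes of cytoskeletal linkers and adhesion had one (13.5%), each with a region in an island. Beside Plec and Evpl these were Jup, which encodes the junction protein plakoglobin (100259000 on chromosome 11), Zyx, which encodes the focal adhesion protein zyxin (42300300 to 42300400 on chromosome 6), and the integrin gene Itga3 (94937900 to 94938000 on chromosome 11). In PI3K and Akt signalling 4 of 31 had one (12.9%): Irs1, Irs2, the insulin receptor gene Insr (3279070 to 3279550 on chromosome 8) and the S6 kinase gene Rps6kb1 (86358100 to 86358200 on chromosome 11). The region of Rps6kb1 lay outside islands and those of the other 3 genes in them. These lists are small, were chosen with earlier results of these data known and were given no test.

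Tumour suppressors had 4 of 38 (10.5%), against 2.10% of all protein-coding genes, namely Ing1, Rbl2, Klf6 and Hic1. This list too was chosen with earlier results of these data known and was given no test. Klf6, a zinc finger transcription factor gene, had regions from 5860740 to 5860910 and from 5860990 to 5861110 on chromosome 13, outside islands. Hic1, which encodes a transcriptional repressor, had a region from 74982500 to 74982600 on chromosome 11 that touched an island of 1800 bp. Rbl2, a gene of the retinoblastoma family, had a region outside islands from 93594300 to 93594400 on chromosome 8. LAR receptor tyrosine phosphatases and their relatives had 1 of 10, too few genes for the share to be read. The gene was Ptprs, with a region 144 bp inside the gene and in an island of 3800 bp.

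In Wnt signalling 4 of 45 genes had a contained region (8.89%, against 2.10% of all protein-coding genes), the receptor genes Fzd1, Fzd2 and Fzd5 and the transducer gene Dvl1. This list and the 2 named below were given no test. Fzd1 had a pair from 4756570 to 4757290 on chromosome 5 in an island of 5800 bp. The region of Fzd5 lay from 64782100 to 64782300 on chromosome 1 in an island of 4800 bp, whereas those of Fzd2, at 102468000 on chromosome 11, and of Dvl1 lay outside islands. Notch signalling had 2 of 32 (6.25%), the receptor gene Notch1, 242 bp inside the gene and in an island of 16800 bp, and the target gene Hey1, outside. Of 37 genes of the TGF-beta and BMP pathways 2 had one (5.41%), Ltbp3 and the inhibitory Smad7, whose region lay outside islands.

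The counts of the lists that follow are small, were given no test, and stand beside 2.10% of all protein-coding genes. At that share, lists of this size are expected to hold 1 gene or none. The lists of histone H3 lysine 36 and lysine 4 methylation (2 of 31, 6.45%) held Men1, which encodes menin, in an island of 7200 bp, and the demethylase gene Kdm4b, outside. MAP kinase genes (2 of 43, 4.65%) were Map2k7 and Spred2, an inhibitor gene of the Ras pathway, with a region of 600 bp outside islands. Extracellular matrix genes (2 of 37, 5.41%) were the neighbours Col4a1 and Col4a2, which encode basement membrane collagen chains. Their regions, from 11312200 to 11312700 and from 11313000 to 11313100 on chromosome 8, shared 1 island of 7200 bp. Semaphorin, plexin, Eph and ephrin genes (2 of 36, 5.56%) were Plxnd1, in an island of 12800 bp, and Ephb4, outside. A single gene stood in each of 3 further lists: Tnfaip3, an inhibitor of NF-kB, outside islands (1 of 30, 3.33%), the tight junction gene Cldn3 of the epithelial-mesenchymal transition list, in an island of 13600 bp (1 of 31, 3.23%), and Hoxa10 of the developmental factors, outside (1 of 52, 1.92%). Onecut3, a homeobox gene that is not on that list, had a pair outside islands.

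No contained region was present in the lists of DNA methylation machinery (0 of 21), Polycomb and corepressors (0 of 39), IL6, JAK and STAT signalling (0 of 32) and housekeeping genes (0 of 23). The markers of lung epithelium (0 of 21), immune cells (0 of 24) and endothelium and stroma (0 of 17) had none either. With 2.10% of genes carrying a region, lists of this size are expected to hold 1 gene or none, so 0 is close to the background.

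The widest members with positions in steps of 10 bp were that of Zfp704 (9451660 to 9452280 on chromosome 3, 620 bp), which encodes a zinc finger protein, and those of Asxl2, for a chromatin regulator, and Ehd1, for a protein of endocytic recycling (560 bp each). Next came a region of Ctxn1 (540 bp). Fosl1, which encodes the AP-1 subunit FRA1, had a region of 520 bp from 5447890 to 5448410 on chromosome 19, in an island of 8400 bp. The median width at this precision was 160 bp, with quartiles of 90 and 260 bp, against 110 bp for intron-only and 210 bp for edge regions. At steps of 100 bp the widest member was the 1000 bp region of Irs2.

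Noncoding genes held 22 members. Fendrr, a lncRNA gene beside Foxf1, had a region at 123607000 on chromosome 8 and another from 123597000 to 123598000, both outside islands. The first stood at its listed start, to within the 1000 bp to which both positions are known. The lncRNA gene Particl had a pair from 72389000 to 72390000 on chromosome 6, outside islands, and Gm11762 had a pair at 119410000 on chromosome 11, in an island of 18400 bp. The miRNA gene Mir7075 was named for a region at 109620000 on chromosome 8, a position known to 1000 bp.

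Contained regions were uneven along and between chromosomes. Chromosome 11 held 74 of them, chromosome 19 held 71 and chromosome 8 held 64, while none of the 3 regions on the X was contained. On chromosome 19, 71 of 129 regions were contained (55.0%, exact 95% interval 46.0 to 63.8), against 37.9% of all regions, and 47 of the 71 lay in islands (66.2%). Of its 705 protein-coding genes, 60 had a contained region (8.51%). On chromosome 11 the contained share was 32.9% and on chromosome 8 it was 41.3%. Chromosome 13, with 8 members, had none in an island.

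**Figure D5:**
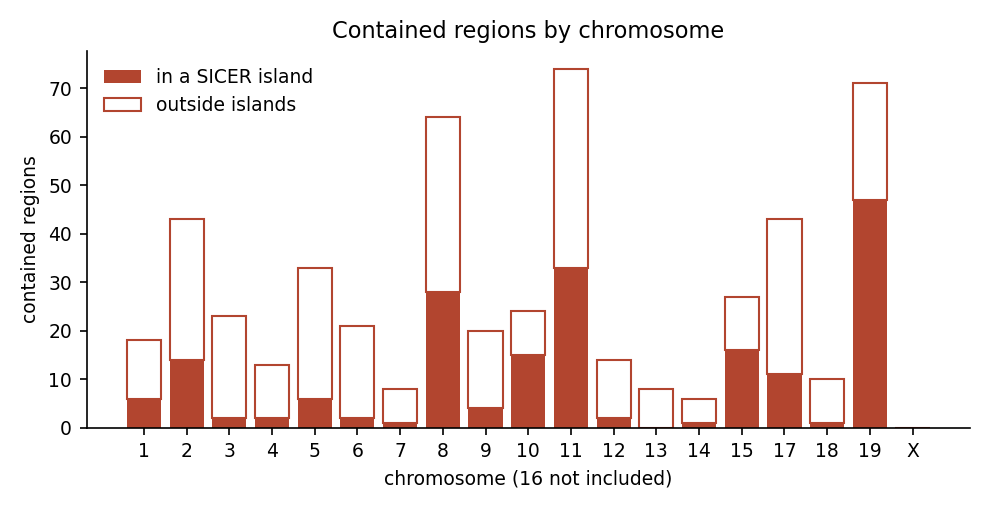
Number of contained regions (y axis) on each chromosome other than 16 (x axis), split into those that share at least 1 bp with a SICER island (filled) and those that do not (open). Chromosomes 11, 19 and 8 hold 74, 71 and 64, and on chromosome 19 the filled part is 47 of 71.

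The first 10 Mb of chromosomes held 121 of the 520 members (23.3%, 19.7 to 27.1), against 41 of 342 intron-only regions (12.0%, 8.74 to 15.9) and 60 of 455 edge and upstream regions (13.2%, 10.2 to 16.6). Over all 1371 regions off chromosome 16 the share was 16.7% (229 regions, 14.8 to 18.8). Of SICER islands off chromosome 16, 5.60% started there. Chromosome 19 supplied 61 of the 121, chromosome 8 supplied 11 and chromosome 5 supplied 10. Of these 121 members, 64 lay in islands (52.9%), against 127 of the other 399 (31.8%). Positions below 10 Mb are also those given in steps of 10 bp, so precision and place cannot be told apart here.

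The share of members within the GRCm38 span of the named gene also differed along the genome. Against 26.3% of all 520, it was 97.8% (135 of 138 regions) for the same wording on chromosome 16. Among the members it was 103 of 121 (85.1%) below 10 Mb and 34 of 399 (8.52%) beyond. It was 84.5% on chromosome 19, 50% on chromosome 8 and 1.35% on chromosome 11. Where at least 1 listed gene end equals GRCm38 within 1 kb, 37 of 52 members lay within 1 kb of the listed start (71.2%). Where neither end does, 99 of 166 did (59.6%).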

How the data were processed

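The submitters' processing notes name Bowtie2 2.10, MACS 1.4, SICER and the build mm10. The narrow list is itself named for MACS2. Per the file headers, the deposited MACS list gives positions, the nearest gene, a distance and an overlap text, and the deposited SICER list gives islands with 1 transcript each. Neither holds counts or scores. The SICER list is named as a top 20 selection, which is not explained, so a region outside its islands may lie in one that was not listed. The sources used here do not say whether libraries were pooled. The 4304 MACS lines reduced to 1705 distinct regions, each counted once. The number of identical lines, up to 55 for a region of Plec, entered only as an alternative. Members and gene lists were chosen with earlier results of these data known.

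Island overlap required 1 bp. Shares were compared by Fisher's exact test in SciPy 1.17.1, with Benjamini-Hochberg adjustment over 2 region comparisons, after the functions were tested on simulated data. Intervals are exact 95% binomial ones and cover counting error only. Regions of 1 gene are not independent. A distance from the start is that of the midpoint, to the closest listed transcript holding it. Names, lengths, biotypes and promoters came from RefSeq GRCm38.p6, where all 520 members matched. The CpG ratio is CpG count times length over the product of C and G counts. Genes named are those with 3 or more members, members in listed pathways, the 10 widest regions at steps of 10 and 100 bp and the 10 widest islands. Genes with 2 members, noncoding genes, and the fit of a promoter window to the listed transcript length were added after the values were seen.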

Additional observations from a re-analysis of the deposited data

How the results depend on the processing

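The excess of contained regions in islands was modest and depended on several choices. Against intron-only regions, with an odds ratio of 1.40, the call was lost with positions in steps of 10 or 100 bp only (1.45), 1 region per gene (1.35), islands of at least median width (1.20) and genes whose ends differ from GRCm38 (1.34). Among alternatives chosen after seeing the data it was also lost without chromosome 19 (1.24), without regions starting below 10 Mb (1.21), without Plec (1.35), and as Mantel-Haenszel odds ratios within chromosomes (1.33) and within rounding steps (1.26). Against edge and upstream regions, with an odds ratio of 1.50, the call was lost with 1 region per gene (1.35), in genes with GRCm38 end positions (1.67), without chromosome 19 (1.31) and without regions starting below 10 Mb (1.31). In genes with other end positions than GRCm38 the direction reversed (0.979). Splits by gene positions hold fewer regions, 52 and 173 contained ones, all in genes that the island list names. They are therefore selected for islands and do not stand for all members. The cause of the other changes was not tested. The highest ratio against intron-only regions was 3.80, in genes with GRCm38 end positions, a split selected in this way. Counting every deposited line gave 2.01 and 1.75, with identical lines of 1 region entered as if separate. The lower island share of genes with contained regions held in its 3 alternatives, with odds ratios between 0.703 and 0.735. The share of midpoints near the gene start was 50% within 500 bp in place of 1 kb and 71.2% in genes with GRCm38 end positions. Protein-coding genes with a contained region numbered 445, and 40 with at least 2 required. No paired analysis was possible because neither list separates the libraries, nor was leaving one of them out. Depth is unknown, so a gene without a region is not shown to lack DNMT3B.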
